A study of Mus musculus with 21 samples.

Results

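The Hox genes are the 39 protein-coding genes of the deposited mouse table, among 32643 genes in all, whose symbol is Hoxa, Hoxb, Hoxc or Hoxd followed only by digits. Of these, 11 lie on chromosome 6 (Hoxa), 10 on chromosome 11 (Hoxb), 9 on chromosome 15 (Hoxc) and 9 on chromosome 2 (Hoxd). The study sequenced testis RNA of mice at postnatal day 10, on a mixed 129sv and C57Bl6 background, that either lacked the bile acid receptor FXRα (FXR KO, gene Nr1h4) or were wild type (WT), and that had received bisphenol-A (BPA, a plastic monomer with oestrogenic activity), stigmasterol (a plant sterol) or vehicle. The 21 libraries, 1 per animal, fall into 6 groups, and animals are given throughout in a fixed order. KO testes comprised BPA animals T25, T83 and T117, stigmasterol animals T10, T15 and T93, and vehicle animals T1, T90 and T110. WT testes comprised BPA animals T60, T75, T61 and T74, then T78, T98, T118 and T119 given stigmasterol, and vehicle animals T66, T71, T79 and T81. The labels give no dose, route, litter or deleted exon, and p-values measure the spread between these animals.

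Hox genes encode homeodomain transcription factors that set position along the body axis. In each cluster they lie in the order in which they are used, from low-numbered genes for anterior regions to high-numbered genes for posterior ones, and genes with the same number in different clusters are paralogs. In the male tract the mesonephric (Wolffian) duct, which forms the epididymis and vas deferens, carries such a code, in which higher-numbered genes mark its lower end, and in mice the loss of Hoxa10 or Hoxa11 transforms parts of that duct. Cdh16, which encodes a cadherin of kidney tubules and of the mesonephric duct and epididymis, is used here as a mark of duct epithelium carried along with a testis.

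Levels are CPM (read counts scaled to library size, with TMM factors), and tests are edgeR quasi-likelihood fits over 20254 genes, called at a Benjamini-Hochberg adjusted p under 0.05. Depth was 35459523 to 61498855 counts per library, so 3 counts, the floor used for a gene without reads, were worth 0.0484 to 0.0884 CPM. Nr1h4 itself was at 0.172 to 0.492 CPM in KO testes and at 0.241 to 0.868 CPM in WT testes, ranges that overlap at a low level, so its total count does not check the genotype labels. Testis somatic factors (10 genes, among them Amh and Dmrt1) summed to 1469 to 1813 CPM in KO libraries and 1598 to 2649 CPM in WT libraries, and every library held them. Cdh16 divided the libraries into separate ranges: 9 had at least 17.6 CPM, and the other 12 had at most 2.62 CPM. KO Cdh16 levels were 0.411, 17.6 and 27.9 CPM with BPA, 86.0, 0.949 and 203 CPM with stigmasterol and 39.9, 1.16 and 22.6 CPM with vehicle. WT Cdh16 levels were 25.3, 23.6, 0.89 and 0.877 CPM with BPA, 0.223, 2.62, 0.582 and 1.18 CPM with stigmasterol and 0.307, 0.1, 0.38 and 17.6 CPM with vehicle. The 9 libraries were 6 of 9 from KO and 3 of 12 from WT testes, and no WT stigmasterol library was among them. Since these are bulk libraries, more duct cells and more RNA per duct cell cannot be told apart.

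The Hox genes differed by degree, from a steadier set to sets that were high in some libraries. Hoxd8, Hoxd9, Hoxd10, Hoxb9, Hoxc4, Hoxc5, Hoxc6 and Hoxd4 were present in every testis, with coefficients of variation of 14.6 to 34.3% over the 21 libraries. Of all 39 genes, 11 had a coefficient under 35%. Among them were Hoxc10 (30.3%) and Hoxa4 (34.55%), which also had reads in every library but lower medians, 1.43 and 0.572 CPM. The steadier set was not without differences. Hoxc4, Hoxc5, Hoxc6 and Hoxd4 reached 1.96 to 2.32 times their medians in T93, and Hoxb9, Hoxc4 and Hoxc5 were called in comparisons of KO and WT below. Genes of the Hoxa and Hoxb clusters with numbers from 2 to 8, with Hoxa9, Hoxc8, Hoxc9 and Hoxd3, were highest in the KO stigmasterol library T93. Hoxa10, Hoxa11, Hoxd11, Hoxd12 and Hoxd13 were highest in the KO BPA library T117. All 24 genes of paralog groups 2 to 9 had their highest level in T93, whereas of the 12 genes of paralog groups 10 to 13, 9 had it in T117 and none in T93. This division was noticed in the data, and the order of single libraries carries no test.

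**Figure D1:**
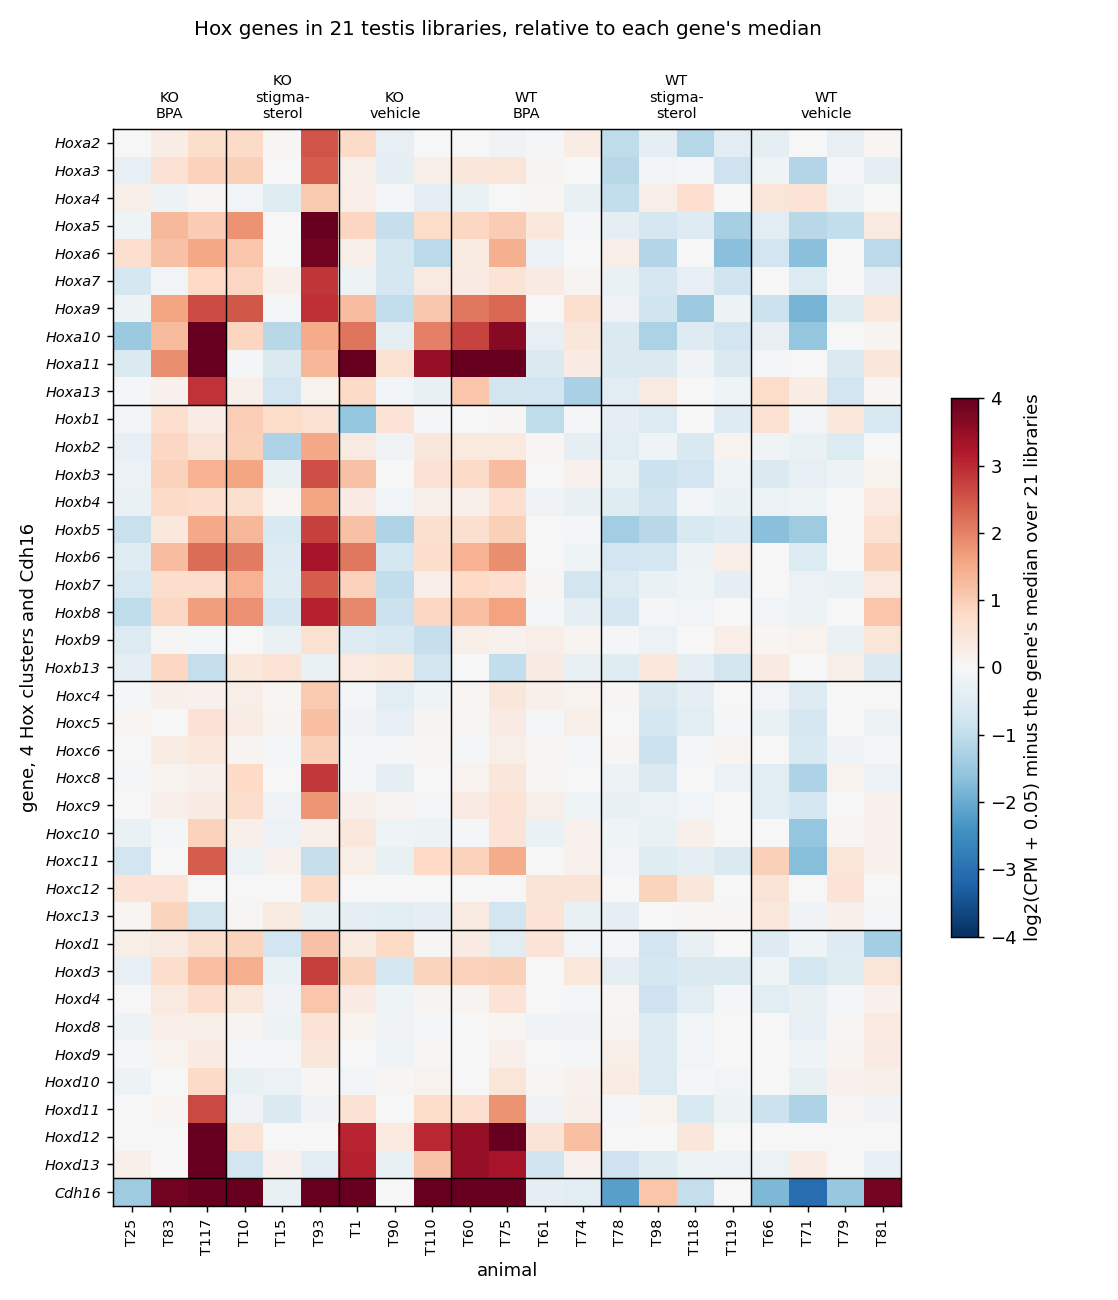
Heat map of log2(CPM + 0.05) minus each gene's median over the 21 libraries, with genes in cluster order and Cdh16 in the bottom row. Columns are animals, KO groups left of WT groups, and colours saturate at 4 log2 units. Hoxd8 to Hoxd10 stay pale in every column, T93 is dark from Hoxa2 to Hoxa9 apart from Hoxa4 and from Hoxb2 to Hoxb8, and T117, T1, T60 and T75 are dark at Hoxa10, Hoxa11, Hoxd12 and Hoxd13.

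The 250 bases before the start of transcription are shown for Hoxb8, which rose with Cdh16, for Hoxa11, which was nearly absent in most libraries, and for Hoxd8, which was steady in all. On mm10, Hoxb8 (ENSMUSG00000056648) spans chromosome 11 bases 96281905 to 96285315, Hoxa11 (ENSMUSG00000038210) chromosome 6 bases 52242106 to 52245810 and Hoxd8 (ENSMUSG00000027102) chromosome 2 bases 74704615 to 74707933. The sequences are RefSeq's on GRCm38.p6, which held entries for 22 of the 39 genes, and capitals mark matches on either strand to TATAAA (the TATA box core), AGGTCA (a nuclear receptor half-site), TGATNNAT (a Hox-Pbx site) or the FXR inverted repeat (2 half-sites facing each other).
Hoxb8 chr11:96281655-96281904, plus strand: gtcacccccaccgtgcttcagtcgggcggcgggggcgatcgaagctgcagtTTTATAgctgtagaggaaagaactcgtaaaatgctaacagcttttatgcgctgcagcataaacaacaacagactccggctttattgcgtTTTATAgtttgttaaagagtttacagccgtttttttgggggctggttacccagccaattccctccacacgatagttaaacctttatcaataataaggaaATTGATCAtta
Hoxa11 chr6:52245811-52246060, minus strand: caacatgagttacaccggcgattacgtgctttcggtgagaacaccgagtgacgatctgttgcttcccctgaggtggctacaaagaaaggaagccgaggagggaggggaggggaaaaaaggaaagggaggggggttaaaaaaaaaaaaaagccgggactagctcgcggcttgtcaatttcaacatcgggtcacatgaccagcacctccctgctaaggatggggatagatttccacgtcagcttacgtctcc
Hoxd8 chr2:74704365-74704614, plus strand: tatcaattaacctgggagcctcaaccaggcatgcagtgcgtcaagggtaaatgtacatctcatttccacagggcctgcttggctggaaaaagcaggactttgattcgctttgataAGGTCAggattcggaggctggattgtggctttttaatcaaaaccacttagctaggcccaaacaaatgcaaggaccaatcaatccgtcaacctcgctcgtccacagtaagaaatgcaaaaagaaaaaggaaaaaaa
Hoxb8 held TATAAA from base -199 and from base -110 and TGATNNAT from base -11, Hoxd8 held AGGTCA from base -135, and Hoxa11 held none of the 4 motifs. TATAAA was in the windows of 4 of the 22 Hox genes and in 12.4% of all 32851 promoters, AGGTCA in 6 of 22 and 14.02%, TGATNNAT in 4 of 22 and 7.68%, and the FXR inverted repeat in 0 of 22 and 0.0061%. A match is a description of these letters and not a bound site.

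Mature miR-10 and miR-196 miRNAs of the clusters are shown with the seed (bases 2 to 8) in capitals, because one of them pairs with Hoxb8, the Hox gene with the smallest p on Cdh16. They share seeds by family, and the sequences are those of RefSeq on GRCm38.p6.
mmu-miR-196a-5p: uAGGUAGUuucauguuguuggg
mmu-miR-196b-5p: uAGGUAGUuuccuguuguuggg
mmu-miR-10a-5p: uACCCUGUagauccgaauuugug
mmu-miR-10b-5p: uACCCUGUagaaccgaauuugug
The transcript Hoxb8-201 (2635 bases, GENCODE M21) holds at bases 2208 to 2229 a site that pairs with all 22 bases of miR-196a-5p, 21 as Watson-Crick and 1 as G:U pairs; capitals mark the bases opposite the seed.
Hoxb8 site: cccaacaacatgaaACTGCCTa

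The most abundant Hox transcripts per length came from the Hoxd cluster. Divided by the gene length behind the deposited per-kilobase values, Hoxd8 averaged 17.9 ± 3.07 CPM per kb, Hoxd9 14.6 ± 2.13, Hoxb9 10.1 ± 2.47 and Hoxc6 9.60 ± 2.49 CPM per kb (SD, n = 21 libraries). Hoxa9 was the highest member of its cluster at 3.51 ± 3.52 CPM per kb. Hoxd8, Hoxd9 and Hoxb9 together made up 45.9 ± 7.78% of the summed Hox level per kb (SD, n = 21), and the Hoxd cluster as a whole 46.8 ± 6.06%. Those lengths were shorter than the union of annotated exons for 25 of the 39 genes, by more than 0.01 kb. With union lengths, which were chosen as an alternative after the data were seen, Hoxd9 ranked first and Hoxd8 second, the same 3 genes held 54.6 ± 7.30%, and Hoxa9 dropped to 0.536 CPM per kb, below Hoxa10 at 0.557 CPM per kb.

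Hoxd8 and Hoxd9, which act in limb and trunk patterning, varied little. KO Hoxd8 levels were 26.6, 37.3 and 36.5 CPM with BPA, 33.7, 26.7 and 45.3 CPM with stigmasterol and 34.4, 28.1 and 29.6 CPM with vehicle. WT Hoxd8 levels were 31.0, 32.7, 28.1 and 28.1 CPM with BPA, 33.5, 21.8, 28.9 and 31.6 CPM with stigmasterol and 30.4, 24.6, 32.0 and 40.3 CPM with vehicle. All 6 groups overlapped, and Hoxd8 had a coefficient of variation of 17.1% over the 21 animals. KO Hoxd9 levels were 29.2, 33.4 and 37.5 CPM with BPA, 29.3, 29.1 and 41.1 CPM with stigmasterol and 30.2, 26.8 and 31.3 CPM with vehicle. WT Hoxd9 levels were 30.2, 35.05, 30.3 and 28.7 CPM with BPA, 35.5, 20.5, 27.7 and 30.1 CPM with stigmasterol and 30.2, 27.0, 32.5 and 38.2 CPM with vehicle. Every group overlapped every other for Hoxd9, whose coefficient of variation was 14.6%, the smallest of the 39 genes. Hoxc6, a gene of the cervical and thoracic trunk, behaved alike except in T93. KO Hoxc6 levels were 8.36, 10.2 and 11.1 CPM with BPA, 8.96, 7.79 and 16.2 CPM with stigmasterol and 8.05, 7.79 and 8.64 CPM with vehicle. WT Hoxc6 levels were 7.90, 9.80, 8.73 and 7.98 CPM with BPA, 8.57, 4.55, 7.91 and 8.95 CPM with stigmasterol and 8.27, 5.46, 7.44 and 7.88 CPM with vehicle. T93 held the highest of these values and WT stigmasterol T98 the lowest.

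Hoxb9, which acts with its paralogs in mammary gland and thoracic patterning, was the one member called lower in KO testes. KO Hoxb9 levels were 16.9, 25.5 and 23.9 CPM with BPA, 24.6, 20.4 and 37.2 CPM with stigmasterol and 17.2, 16.1 and 13.1 CPM with vehicle. WT Hoxb9 levels were 29.3, 27.9, 29.4 and 26.4 CPM with BPA, 23.1, 21.1, 24.5 and 29.6 CPM with stigmasterol and 25.9, 27.1, 20.6 and 34.3 CPM with vehicle. The 3 KO vehicle values lay below all 4 WT vehicle values, with means of 15.5 ± 2.14 CPM in KO and 27.0 ± 5.68 CPM in WT vehicle testes (SD, n = 3 and 4). The log2 fold change was -0.80 ± 0.20 (SE, adjusted p = 0.0328), against a background of 1.68% of 20254 genes called lower in the same comparison. It was the only member of 37 tested that was called with vehicle, and its adjusted p lay between 0.0161 and 0.123 when single animals were left out, under 0.05 in 1 of 7 such fits. With BPA the 3 KO values also lay below the 4 WT values, but Hoxb9 was not called (log2 fold change -0.35 ± 0.19 SE, adjusted p = 0.709). The share of all genes whose KO values all lay below the WT values was not counted with vehicle or BPA. With stigmasterol KO and WT values overlapped.

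Genes of paralog groups 1 to 3 are the most anterior of the clusters and pattern hindbrain and neck. Of the 8, 5 were called higher in KO than WT testes over the 3 treatments, where 6.85% of all 20254 tested genes were called higher. None was called with limma-voom or without the 9 libraries high in Cdh16. KO Hoxa2 levels were 0.297, 0.38 and 0.516 CPM with BPA, 0.545, 0.309 and 1.95 CPM with stigmasterol and 0.542, 0.226 and 0.304 CPM with vehicle. WT Hoxa2 levels were 0.293, 0.262, 0.282 and 0.373 CPM with BPA, 0.122, 0.216, 0.109 and 0.206 CPM with stigmasterol and 0.219, 0.301, 0.224 and 0.319 CPM with vehicle. Hoxa2, which patterns the second pharyngeal arch, was highest in T93, and the next library, T10, was well below it. KO Hoxa3 levels were 0.983, 1.88 and 2.36 CPM with BPA, 2.45, 1.24 and 6.79 CPM with stigmasterol and 1.47, 0.951 and 1.47 CPM with vehicle. WT Hoxa3 levels were 1.72, 1.74, 1.35 and 1.25 CPM with BPA, 0.547, 1.15, 1.16 and 0.677 CPM with stigmasterol and 1.10, 0.526, 1.16 and 0.958 CPM with vehicle. Hoxa3, needed for thymus and parathyroid in mice, exceeded 3 CPM in T93 alone. KO Hoxb2 levels were 0.503, 1.16 and 0.935 CPM with BPA, 1.27, 0.243 and 1.95 CPM with stigmasterol and 0.843, 0.58 and 0.887 CPM with vehicle. WT Hoxb2 levels were 0.86, 0.858, 0.673 and 0.482 CPM with BPA, 0.466, 0.563, 0.4 and 0.707 CPM with stigmasterol and 0.571, 0.526, 0.425 and 0.639 CPM with vehicle. Hoxb2, a hindbrain gene, was highest in T93 and T10, and its KO and WT ranges overlapped. KO Hoxb3 levels were 1.19, 2.73 and 3.79 CPM with BPA, 4.36, 1.15 and 8.58 CPM with stigmasterol and 3.27, 1.40 and 2.15 CPM with vehicle. WT Hoxb3 levels were 2.44, 3.41, 1.41 and 1.60 CPM with BPA, 1.18, 0.758, 0.8 and 1.24 CPM with stigmasterol and 0.922, 1.10, 1.23 and 1.57 CPM with vehicle. T93 was again highest, and the KO stigmasterol library T10 and the KO BPA library T117 followed. KO Hoxd3 levels were 1.44, 2.97 and 4.25 CPM with BPA, 5.04, 1.52 and 12.8 CPM with stigmasterol and 3.45, 1.11 and 3.40 CPM with vehicle. WT Hoxd3 levels were 3.52, 3.55, 1.82 and 2.46 CPM with BPA, 1.38, 1.10, 1.20 and 1.21 CPM with stigmasterol and 1.60, 1.10, 1.30 and 2.58 CPM with vehicle. Hoxd3, which shapes the first cervical vertebrae, had a single value above 6 CPM, that of T93. KO Hoxd1 levels were 0.183, 0.201 and 0.271 CPM with BPA, 0.318, 0.0662 and 0.393 CPM with stigmasterol and 0.201, 0.29 and 0.152 CPM with vehicle. WT Hoxd1 levels were 0.196, 0.0954, 0.239 and 0.132 CPM with BPA, 0.142, 0.0649, 0.109 and 0.147 CPM with stigmasterol and 0.0878, 0.125, 0.0894 and 0.0266 CPM with vehicle. Hoxd1, known from pain-sensing neurons in mice, had 23 counts at most, so its levels rest on few reads. Several genes of these groups share exon bases with neighbours. Hoxd3 shares 62.3% with Hoxd4 and Gm28230 on its strand, and Hoxa2 a smaller part with Gm28308. Hoxb3 shares 52.9% and Hoxb2 27.3% with the antisense gene Hoxb3os, and Hoxa3 shares 25.4% with antisense genes. Reads over these shared bases cannot be told apart, so the levels and calls may include neighbouring transcripts.

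Hoxb1, a hindbrain gene of the same groups, lay between 0.0602 and 0.590 CPM and was not called in any comparison.

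Genes of paralog groups 4 to 8 pattern neck and thorax, and the Hoxb members among them ran along the level of Cdh16. KO Hoxb8 levels were 1.14, 4.25 and 7.60 CPM with BPA, 8.46, 1.48 and 20.4 CPM with stigmasterol and 9.14, 1.29 and 4.21 CPM with vehicle. WT Hoxb8 levels were 5.51, 7.32, 2.30 and 1.797 CPM with BPA, 1.46, 2.29, 2.20 and 2.39 CPM with stigmasterol and 2.22, 2.05, 2.37 and 5.19 CPM with vehicle. Hoxb8, a gene also used in blood progenitors, was above 4 CPM in all 9 libraries with at least 17.6 CPM of Cdh16 and below 2.5 CPM in the other 12. KO Hoxb6 levels were 0.983, 3.33 and 6.69 CPM with BPA, 5.99, 0.949 and 13.9 CPM with stigmasterol and 6.16, 0.838 and 2.31 CPM with vehicle. WT Hoxb6 levels were 3.67, 5.13, 1.37 and 1.23 CPM with BPA, 0.79, 0.823, 1.18 and 1.68 CPM with stigmasterol and 1.38, 0.927, 1.36 and 2.66 CPM with vehicle. Hoxb6 likewise was at least 2.31 CPM in those 9 libraries and at most 1.68 CPM in the other 12. KO Hoxb7 levels were 1.83, 4.74 and 4.77 CPM with BPA, 7.65, 2.08 and 15.8 CPM with stigmasterol and 5.48, 1.43 and 3.47 CPM with vehicle. WT Hoxb7 levels were 5.06, 4.67, 3.08 and 1.73 CPM with BPA, 1.97, 2.40, 2.56 and 2.24 CPM with stigmasterol and 2.90, 2.48, 2.39 and 3.81 CPM with vehicle. Hoxb7, which is active in the mesonephric duct of mice, kept the same division, at least 3.47 CPM in the 9 and at most 3.08 CPM in the 12. KO Hoxb5 levels were 0.525, 1.39 and 3.00 CPM with BPA, 2.63, 0.662 and 7.17 CPM with stigmasterol and 2.39, 0.419 and 1.62 CPM with vehicle. WT Hoxb5 levels were 1.62, 2.05, 1.04 and 0.964 CPM with BPA, 0.365, 0.455, 0.655 and 0.707 CPM with stigmasterol and 0.285, 0.351, 1.03 and 1.60 CPM with vehicle. Hoxb5, which acts in enteric neural crest, was at least 1.39 CPM in the 9 and at most 1.04 CPM in the 12. KO Hoxb4 levels were 1.78, 3.67 and 3.52 CPM with BPA, 3.36, 2.27 and 6.50 CPM with stigmasterol and 2.73, 1.97 and 2.46 CPM with vehicle. WT Hoxb4 levels were 2.46, 3.41, 1.93 and 1.73 CPM with BPA, 1.52, 1.21, 1.96 and 1.77 CPM with stigmasterol and 1.82, 1.90, 2.15 and 2.85 CPM with vehicle. Hoxb4, known from blood stem cells, spanned a narrower range, at least 2.46 CPM in the 9 and at most 2.27 CPM in the 12. The share of all tested genes that divide the libraries in this way was not counted. These divisions alone therefore do not set the Hoxb genes apart.

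The Hoxa members of these groups were scarce outside T93. KO Hoxa5 levels were 0.388, 1.16 and 0.935 CPM with BPA, 1.66, 0.442 and 8.11 CPM with stigmasterol and 0.843, 0.209 and 0.76 CPM with vehicle. WT Hoxa5 levels were 0.821, 0.954, 0.608 and 0.416 CPM with BPA, 0.324, 0.26, 0.291 and 0.147 CPM with stigmasterol and 0.307, 0.175, 0.201 and 0.586 CPM with vehicle. Hoxa5, which is required for lung formation in mice, was at or below 1.66 CPM in the other 20 libraries. KO Hoxa6 levels were 0.206, 0.313 and 0.418 CPM with BPA, 0.295, 0.11 and 2.27 CPM with stigmasterol and 0.141, 0.0483 and 0.0254 CPM with vehicle. WT Hoxa6 levels were 0.156, 0.382, 0.0868 and 0.11 CPM with BPA, 0.142, 0.0216, 0.109 and 0 CPM with stigmasterol and 0.0439, 0, 0.112 and 0.0266 CPM with vehicle. Hoxa6 had no read in WT vehicle T71 and WT stigmasterol T119, and T93 held 133 of its counts. KO Hoxa7 levels were 0.503, 0.782 and 1.52 CPM with BPA, 1.54, 0.993 and 6.55 CPM with stigmasterol and 0.743, 0.516 and 1.11 CPM with vehicle. WT Hoxa7 levels were 1.09, 1.26, 1.08 and 0.92 CPM with BPA, 0.709, 0.519, 0.673 and 0.471 CPM with stigmasterol and 0.856, 0.576, 0.872 and 0.639 CPM with vehicle. Hoxa7 shares 20.4% of its exon bases with the antisense gene Hoxaas3, and without strand the reads of both cannot be told apart. Hoxa4 was not called in any comparison and lay between 0.264 and 1.23 CPM.

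In the Hoxc cluster the same library stood apart, most of all for Hoxc8, which patterns thoracic vertebrae and forelimb motor neurons. KO Hoxc8 levels were 3.52, 4.13 and 4.30 CPM with BPA, 6.45, 3.71 and 26.8 CPM with stigmasterol and 3.53, 2.80 and 3.73 CPM with vehicle. WT Hoxc8 levels were 4.11, 5.05, 3.80 and 3.66 CPM with BPA, 3.18, 2.49, 3.71 and 3.12 CPM with stigmasterol and 2.72, 1.55, 4.11 and 3.14 CPM with vehicle. T93 held 26.8 CPM, and the next highest library, KO stigmasterol T10, was far below it. KO Hoxc9 levels were 1.60, 1.83 and 2.02 CPM with BPA, 2.63, 1.44 and 5.56 CPM with stigmasterol and 1.87, 1.74 and 1.52 CPM with vehicle. WT Hoxc9 levels were 2.01, 2.38, 1.91 and 1.40 CPM with BPA, 1.30, 1.36, 1.49 and 1.59 CPM with stigmasterol and 1.19, 0.952, 1.59 and 1.81 CPM with vehicle. Hoxc9, a gene of the thoracic motor column, showed T93 first and T10 second as well. KO Hoxc4 levels were 7.40, 8.96 and 8.68 CPM with BPA, 9.26, 8.17 and 16.1 CPM with stigmasterol and 7.57, 5.75 and 6.95 CPM with vehicle. WT Hoxc4 levels were 8.21, 10.7, 8.94 and 8.53 CPM with BPA, 7.99, 5.20, 6.04 and 7.60 CPM with stigmasterol and 7.15, 5.44, 7.73 and 7.75 CPM with vehicle. All KO stigmasterol values of Hoxc4 lay above all WT stigmasterol values. KO Hoxc5 levels were 3.15, 3.00 and 4.45 CPM with BPA, 3.68, 3.18 and 6.89 CPM with stigmasterol and 2.67, 2.37 and 3.19 CPM with vehicle. WT Hoxc5 levels were 3.07, 3.77, 2.87 and 3.48 CPM with BPA, 2.94, 1.82, 2.22 and 2.83 CPM with stigmasterol and 2.48, 1.83, 2.97 and 2.56 CPM with vehicle. The same held for Hoxc5. Hoxd4, which shares 52.3% of its exon bases with Hoxd3 and other genes on its strand, ranged from 3.70 to 14.3 CPM and was not called.

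Hoxa9, Hoxa10 and Hoxa11, which are known as marks of successive parts of the male and female ducts, marked libraries in different ways. KO Hoxa9 levels were 1.14, 4.07 and 8.29 CPM with BPA, 7.72, 1.26 and 10.4 CPM with stigmasterol and 3.15, 0.645 and 2.84 CPM with vehicle. WT Hoxa9 levels were 5.94, 6.65, 1.32 and 2.104 CPM with BPA, 1.20, 0.736, 0.455 and 1.15 CPM with stigmasterol and 0.702, 0.326, 0.939 and 1.81 CPM with vehicle. Hoxa9 was highest in T93, T117 and T10, and the 9 libraries with much Cdh16 overlapped the others only through T81, at 1.81 CPM, and T74, at 2.104 CPM. KO Hoxa10 levels were 0.16, 1.36 and 13.6 CPM with BPA, 1.02, 0.221 and 1.57 CPM with stigmasterol and 2.53, 0.403 and 2.33 CPM with vehicle. WT Hoxa10 levels were 3.77, 7.30, 0.412 and 0.745 CPM with BPA, 0.344, 0.195, 0.364 and 0.294 CPM with stigmasterol and 0.417, 0.15, 0.536 and 0.586 CPM with vehicle. T117 and T75 led for Hoxa10, and T93 with its far higher Cdh16 held 1.57 CPM. KO Hoxa11 levels were 0, 0.224 and 5.53 CPM with BPA, 0.0227, 0 and 0.137 CPM with stigmasterol and 1.17, 0.0645 and 0.786 CPM with vehicle. WT Hoxa11 levels were 1.66, 3.27, 0 and 0.0438 CPM with BPA, 0, 0, 0.0182 and 0 CPM with stigmasterol and 0.0219, 0.025, 0 and 0.0532 CPM with vehicle. Hoxa11 had 0 to 4 reads in each of the 12 libraries with little Cdh16, and between 1 and 225 reads in the 9 others. T93 and T10, the libraries with most Cdh16, held 8 and 1 reads of Hoxa11. Hoxa11 shares part of its exon bases with the antisense gene Hoxa11os, and reads of the 2 genes cannot be told apart without strand.

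The posterior Hoxd genes were high in the same animals; these genes and Acta1 are named after their values were seen. Hoxd12 had 2.48 CPM in T117, 1.43 CPM in T75, 0.508 CPM in T60, 0.361 CPM in T1 and 0.355 CPM in T110, against at most 0.0658 CPM in the other 16 libraries. Hoxd13, a gene of digits and external genitalia, had 3.67 CPM in T117 and at most 0.150 CPM outside those 5 libraries, within which it was at least 0.304 CPM. For Hoxd11 the 5 libraries spanned 1.35 to 5.76 CPM, and the other 16 spanned 0.351 to 1.03 CPM. Hoxc11 reached 0.812 CPM in T117, and Hoxa13, which failed the filter on low counts, reached 0.861 CPM there. Hoxb13 and Hoxc13, also of the last paralog group, did not share this pattern and were highest in KO BPA T83, at 1.23 and 0.559 CPM. Hoxd10 and Hoxc10 stayed within 5.39 to 13.3 CPM and 0.451 to 2.76 CPM. Hoxc12, the other untested gene, never had more than 2 reads.

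Among these animals Acta1, the actin of skeletal muscle, was at 25.6 CPM in T117, 20.4 CPM in T75, 15.6 CPM in T1, 10.99 CPM in T60 and 4.46 CPM in T110, and at most 0.770 CPM in every other library. The other 6 genes of the skeletal muscle list summed to 9.63 to 11.5 CPM in KO and 7.54 to 11.3 CPM in WT libraries. Of the 21 libraries, T110 (11.48 CPM) and T1 (11.45 CPM) ranked 1 and 2 in this sum. T60 (10.77 CPM), T117 (9.69 CPM) and T75 (9.68 CPM) ranked 7, 13 and 15. Ckm, Myh3, Myog and Tnnt3 were highest in T81, T66, T15 and T93, and Myh8 and Mylpf in T1 and T110. With Acta1 the list summed to 9.70 to 35.3 CPM in KO and 7.72 to 30.0 CPM in WT libraries. T117 also had the highest levels of the Hox cofactor gene Meis2 (26.9 CPM) and of all listed fat genes but Plin1, among them Fabp4 (35.8 CPM) and Car3 (33.5 CPM). Plin1 was highest in T81 (18.3 CPM). All listed mesenchyme genes but Col1a1 and Pi16, both highest in T93, were highest in T117. Myh11, for example, was at 635 CPM there, against a median of 267 CPM. The same held for all listed endothelial genes but Cdh5, highest in T78. The part of muscle, fat or other tissue RNA in the levels of the posterior genes was not tested.

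**Figure D2:**
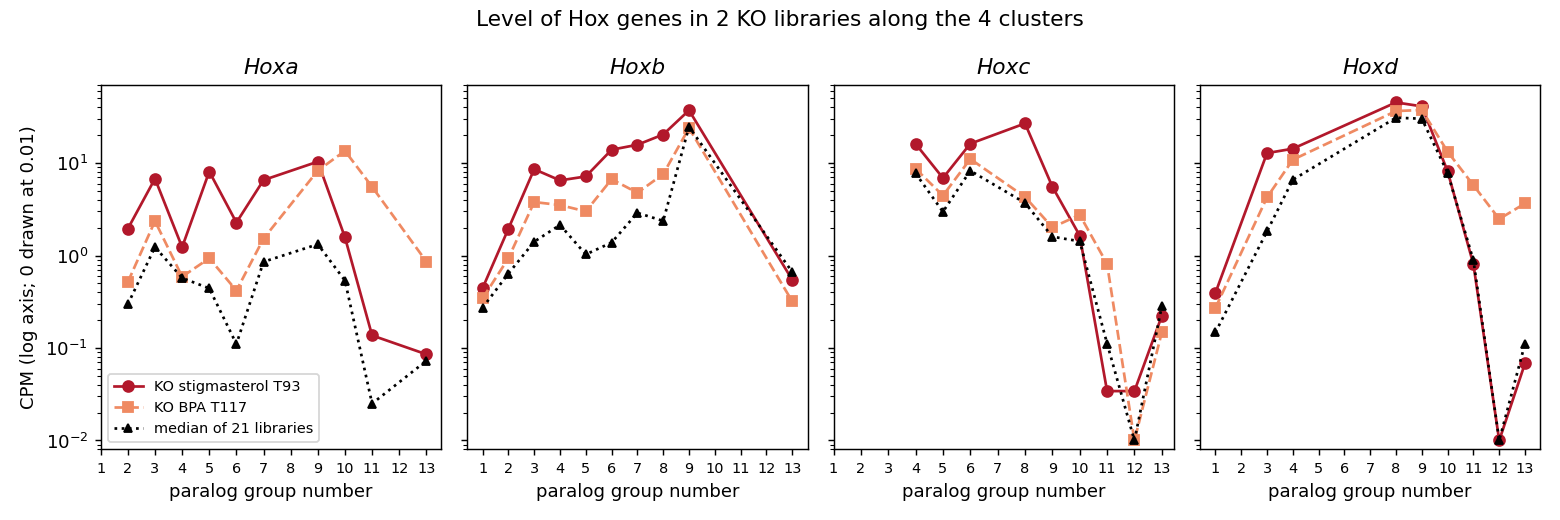
CPM (log axis) of Hox genes against its paralog group number in the 4 clusters, for KO stigmasterol T93 (circles), KO BPA T117 (squares) and the median of the 21 libraries (triangles); a level of 0 is drawn at 0.01. T93 lies above T117 up to group 9 in each cluster, and T117 lies above T93 from Hoxa10 on, from Hoxd10 on, and at Hoxc10 and Hoxc11. At Hoxb13, Hoxc12 and Hoxc13, T93 lies above T117.

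Set side by side, these libraries of the same genotype differed in opposite directions along the clusters. T93 exceeded T117 by 8.67-fold for Hoxa5, 6.23-fold for Hoxc8, 2.68-fold for Hoxb8 and 1.25-fold for Hoxa9. T93 was at 0.116 times the level of T117 for Hoxa10, at 0.0247 times for Hoxa11 and at 0.0187 times for Hoxd13. Not all posterior genes shared this direction: Hoxb13 was 1.71-fold and Hoxc13 1.51-fold higher in T93. Cdh16 itself was 7.29-fold higher in T93. Each library is a single animal of a different treatment, so these ratios have no replicate error.

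**Figure D3:**
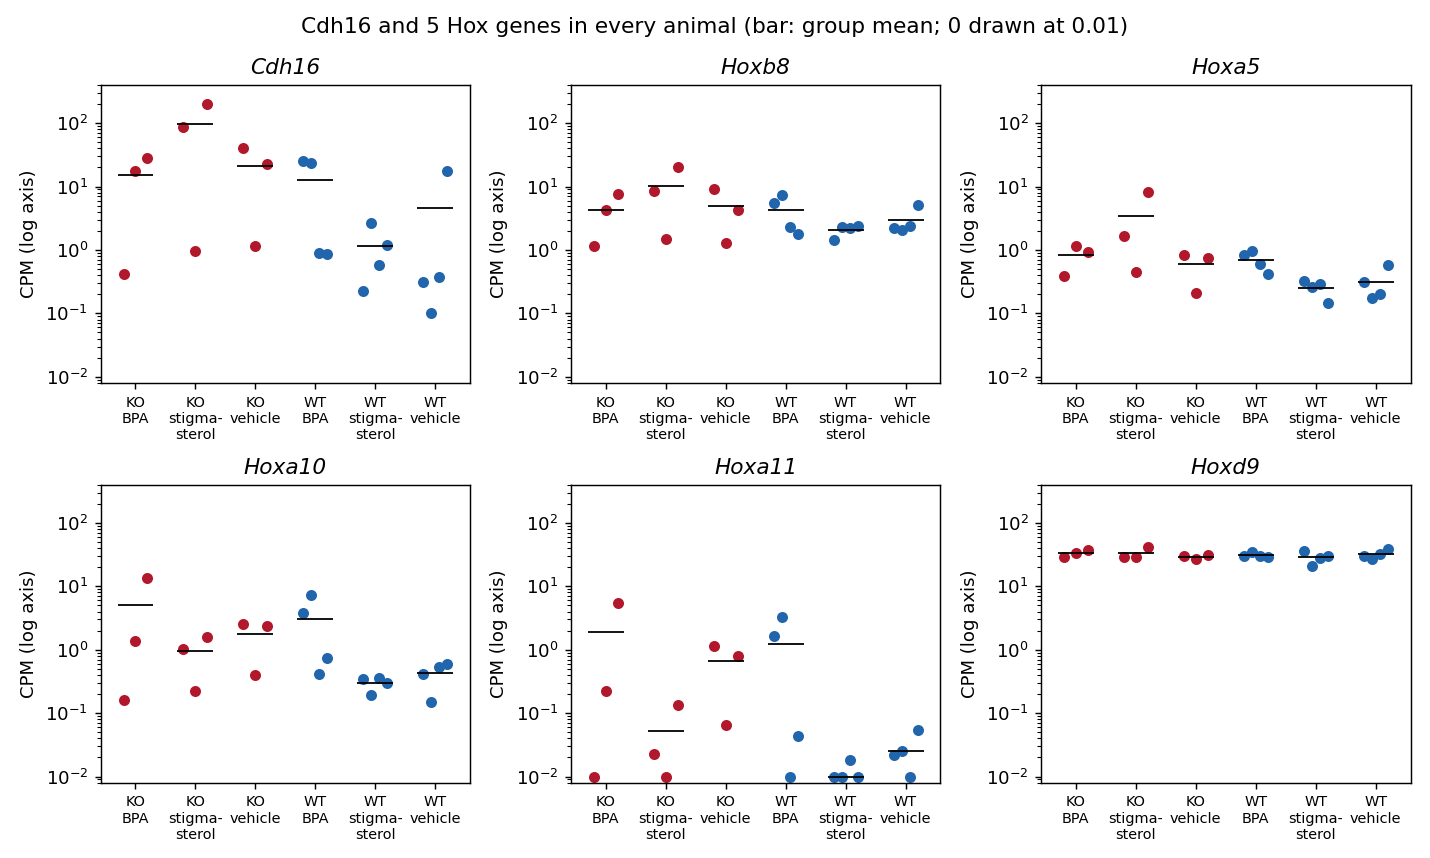
CPM (log axis) of Cdh16 and 5 Hox genes in every animal, KO groups (red) left of WT groups (blue), with a bar at each group mean and levels of 0 drawn at 0.01. Hoxd9 stays between 20.5 and 41.1 CPM, Hoxb8 is above 4 CPM in the libraries with high Cdh16, and Hoxa11 is at or near 0 in most WT libraries but reaches 3.27 CPM in WT BPA T75.

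To measure the relation to Cdh16, each gene was fitted on log2 CPM of Cdh16 together with the 6 group means. Of 37 Hox genes tested, 14 had a positive slope past the threshold and none a negative one, against 1.93% of 20253 genes called positive and 0.128% called negative. The median slope of the Hox genes was 0.15 log2 units per doubling of Cdh16, and that of all genes 0.00. Hoxb8, whose promoter is printed above beside those of Hoxa11 and Hoxd8, had a slope of 0.38 ± 0.0387 (SE, adjusted p = 8.67e-06), Hoxb6 of 0.38 ± 0.047 (SE, adjusted p = 6.01e-05) and Hoxa9 of 0.37 ± 0.0458 (SE, adjusted p = 7.62e-05). The steepest were Hoxa11 at 1.09 ± 0.15 (SE, adjusted p = 0.000303) and Hoxd12 at 0.97 ± 0.20 (SE, adjusted p = 0.0144). Hoxa10 had a slope of 0.50 ± 0.10 (SE, adjusted p = 0.00858), Hoxb5 of 0.33 ± 0.0482 (SE, adjusted p = 0.000395) and Hoxb7 of 0.24 ± 0.0352 (SE, adjusted p = 0.000395). Among lower-numbered genes Hoxd3 had 0.24 ± 0.0363 (SE, adjusted p = 0.000624), Hoxb3 0.22 ± 0.0382 (SE, adjusted p = 0.00274) and Hoxb2 0.18 ± 0.038 (SE, adjusted p = 0.014).

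The last 3 called were Hoxa5 with a slope of 0.31 ± 0.0571 (SE, adjusted p = 0.00442), Hoxb4 with 0.13 ± 0.0254 (SE, adjusted p = 0.00814) and Hoxa3 with 0.17 ± 0.0404 (SE, adjusted p = 0.0351). By cluster, 7 of 10 tested Hoxb genes and 5 of 10 Hoxa genes were called, against 2 of 9 Hoxd and 0 of 8 Hoxc genes. The abundant Hoxd8 and Hoxd9 had slopes of 0.06 ± 0.0163 (SE, adjusted p = 0.0619) and 0.04 ± 0.0171 (SE, adjusted p = 0.36). Leaving out single animals gave 10 to 16 calls. In WT libraries alone 1 of 31 tested genes was called, Hoxb8 (slope 0.26, adjusted p = 0.0101), against 0.177% of all genes called positive, and in KO libraries alone 8 of 36, against 1.17%. DESeq2 called 16 of the 37, against 2.84% of all genes, and limma-voom 14, against 1.96%.

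**Figure D4:**
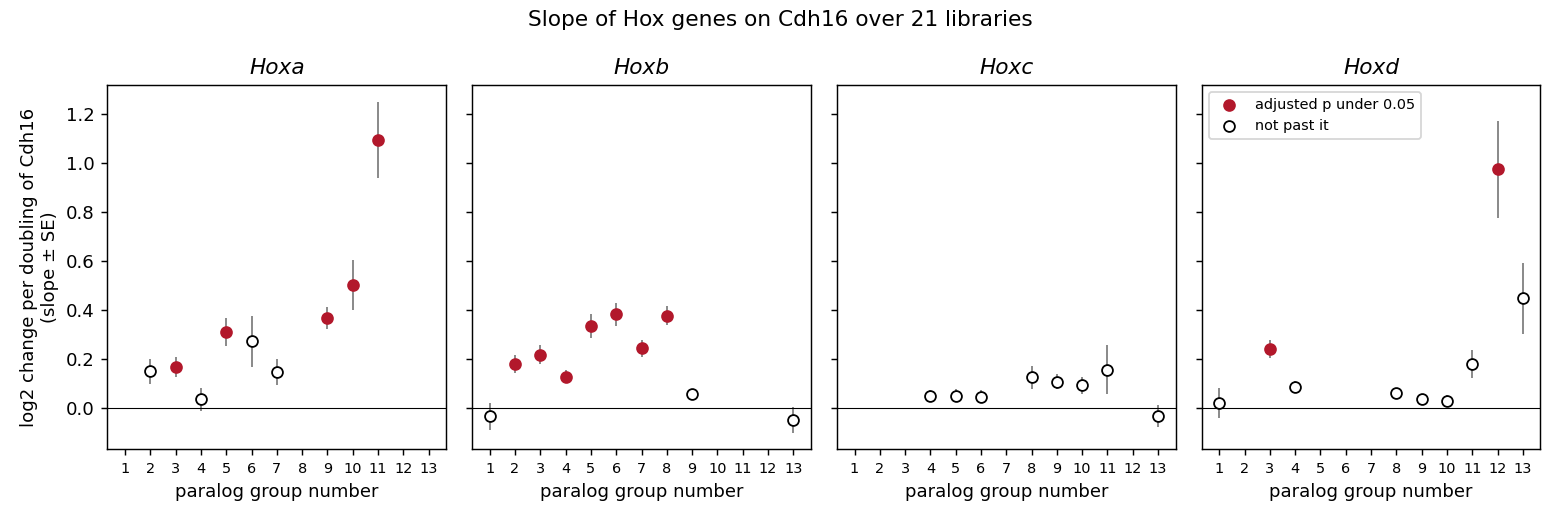
Slope of tested Hox genes on Cdh16 (log2 change per doubling of Cdh16, with SE) against its paralog group number, by cluster, over 21 libraries. Filled points passed an adjusted p of 0.05; in Hoxb, genes 2 to 8 are filled while Hoxb9 and Hoxb13 sit near 0, and the highest points are Hoxa11 and Hoxd12.

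The slope was also fitted inside each range of Cdh16, which was decided on with the values known. Within the 12 libraries under 10 CPM of Cdh16, 0 of 33 tested Hox genes were called, where 0.0144% of all genes were called positive without group terms. Within the 9 others, fitted without group terms, 12 of 38 were called, all positive and all of paralog groups 1 to 9, against 1.22% of 20762 genes. In that fit the 27 genes of groups 1 to 9 all had positive slopes (median 0.42), and 9 of 11 tested genes of groups 10 to 13 had negative ones (median -0.41), none of which was called. Without T93, none of these genes was called, where 0.131% of all genes were, and the medians were 0.29 and -0.26. With group terms none was called in either range, where 0 of all 20841 and 0 of all 20762 tested genes were called, so these fits do not set the Hox genes apart.

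Across the 3 treatments together, 8 of the 37 tested Hox genes were higher in KO than in WT testes and none was lower, against backgrounds of 6.85% of 20254 genes called higher and 7.07% called lower. The median log2 fold change of the Hox genes was 0.64, and that of all genes 0.01. On the log2 scale Hoxa5 differed by 1.62 ± 0.41 (SE, adjusted p = 0.0143), Hoxa9 by 1.42 ± 0.43 (SE, adjusted p = 0.0356), Hoxb3 by 1.13 ± 0.29 (SE, adjusted p = 0.0144) and Hoxa2 by 1.12 ± 0.28 (SE, adjusted p = 0.014). Hoxd3 had 1.04 ± 0.30 (SE, adjusted p = 0.0295), Hoxd1 0.98 ± 0.29 (SE, adjusted p = 0.0296), Hoxa3 0.88 ± 0.26 (SE, adjusted p = 0.0287) and Hoxb4 0.59 ± 0.19 (SE, adjusted p = 0.0404). KO and WT ranges overlapped for all 8: Hoxa5, for example, had a lowest, median and highest level of 0.209, 0.843 and 8.11 CPM in KO and of 0.147, 0.316 and 0.954 CPM in WT testes. Cdh16 moved with them, at 2.97 ± 0.94 (SE, adjusted p = 0.0427) on the same scale. Without the 9 libraries with at least 10 CPM of Cdh16, which left 1 KO animal in each treatment whose spread was taken to be that of the other groups, none of 33 tested Hox genes was called, where the shares over all 20842 genes were also low, 0.571% higher and 0.662% lower. With Cdh16 as a term in the fit, none was called higher and 1 lower, against 5.22% and 6.5% of all genes. Leaving out T93 gave 3 higher and 1 lower, against 4.79% and 6.97%, and leaving out T117 gave 3 higher, against 4.94%. DESeq2 called 14 Hox genes higher and 1 lower, against 7.95% and 9.09% of all genes, and limma-voom called none, against 5.84% and 6.47%.

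The KO and WT difference was largest in number with stigmasterol, where 16 of 37 Hox genes were higher in KO testes and none was lower, against 3.87% of 20254 genes called higher and 3.34% called lower. The median log2 fold change was 1.17 for the Hox genes and 0.02 for all genes. Hoxa5 averaged 3.40 ± 4.12 CPM in KO and 0.256 ± 0.0769 CPM in WT stigmasterol testes (SD, n = 3 and 4), and its log2 difference was 3.70 ± 0.72 (SE, adjusted p = 0.00496). Hoxa2 averaged 0.934 ± 0.887 CPM in KO and 0.163 ± 0.0558 CPM in WT testes, and its log2 difference was 2.55 ± 0.49 (SE, adjusted p = 0.00469). For Hoxa7 it was 2.35 ± 0.48 (SE, adjusted p = 0.00735), for Hoxd3 2.40 ± 0.53 (SE, adjusted p = 0.0112), for Hoxc8 1.98 ± 0.44 (SE, adjusted p = 0.0113) and for Hoxa3 1.98 ± 0.44 (SE, adjusted p = 0.0116). The other 10 called genes were Hoxb3, Hoxb4, Hoxa6, Hoxa9, Hoxc9, Hoxc5, Hoxb5, Hoxb7, Hoxc4 and Hoxb6, with log2 fold changes from 0.74 for Hoxc4 to 3.58 for Hoxa6. By number, 4 of 8 genes of groups 1 to 3, 10 of 15 of groups 4 to 8 and 2 of 14 tested of groups 9 to 13 were called. For 9 of the 16 the 3 KO values lay above the 4 WT values, as they did for 8.44% of all tested genes and for 76.1% of the 784 genes called higher. For the other 7 the KO library T15 fell within the WT range.

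Cdh16 averaged 96.7 ± 102 CPM in KO and 1.15 ± 1.05 CPM in WT stigmasterol testes. Without T93 none of the 16 was called, where 1.21% of all genes were called higher, with log2 fold changes that were all still positive, 2.33 for Hoxa9 and 0.36 for Hoxc4. Fits without the libraries with at least 10 CPM of Cdh16, with Cdh16 as a term, or with the KO and WT stigmasterol groups alone also called none. The shares of all genes called higher in these fits were 0.264%, 1.9% and 0.792%, each below that of the fit over all libraries. Differences between these libraries in duct RNA and the absence of FXRα cannot be told apart with 2 of 3 KO animals at 86.0 and 203 CPM of Cdh16 and no WT animal above 2.62 CPM.

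DESeq2 called 18 Hox genes with stigmasterol, against 5.3% of all genes higher and 5.6% lower, and limma-voom called 6, against 2.96% and 2.99%. With vehicle, Hoxb9 was the one call described above, and the median log2 fold change of the Hox genes was 0.31. DESeq2 called 1 Hox gene higher and 1 lower there, against 2.72% and 4.26% of all genes, and limma-voom none, against 1.24% and 1.64%. With BPA none of 37 was called, where 0.43% of all genes were called in each direction. No Hox gene had an unadjusted p under 0.05 there, where 1653 of all 20254 tested genes had. DESeq2 and limma-voom called none either, where DESeq2 called 0.726% and 0.765% and limma-voom 0.385% and 0.395% of all genes higher and lower. Beside Hoxb9, the smallest p-values with BPA were those of Hoxb1 (log2 fold change 0.60 ± 0.46 SE, adjusted p = 0.87) and Hoxd11 (0.64 ± 0.54 SE, adjusted p = 0.915). Without T117 the value of Hoxd11 turned to -0.82. Both genotypes contributed libraries with high Cdh16 to this comparison, 2 of 3 from KO and 2 of 4 from WT testes.

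Neither BPA nor stigmasterol gave a called Hox gene against vehicle in either genotype, nor did the tests of whether a treatment acted differently in KO and WT, and in these 6 comparisons at most 0.00987% of all genes were called in a direction (0.00494% lower with stigmasterol in WT, higher with BPA in KO, and higher in the BPA interaction). For BPA in WT testes the count over all genes depended on single libraries: without T79, 1.99% of 20232 genes were called higher and 4.54% lower, and without T60, 0.549% and 0.831% of 20209, with no Hox gene called in either fit. Neither DESeq2, with 1.43% of all genes higher and 3.71% lower, nor limma-voom called a Hox gene in WT testes with BPA. In this comparison 6 of the 37 Hox genes had an unadjusted p under 0.05, as had 3798 of all 20254 tested genes. The smallest were Hoxa11 (log2 fold change 5.54 ± 1.82 SE, adjusted p = 0.121), Hoxa9 (2.09 ± 0.73 SE, adjusted p = 0.139) and Hoxd12 (adjusted p = 0.143). Hoxd12 had 90 reads in the WT BPA libraries T60, T75, T61 and T74 together and none in the WT vehicle libraries. Its mean of 0.507 CPM was at least 28.3-fold above a floor of 3 counts over the whole WT vehicle group. That pooled floor, 0.0179 CPM, is lower than the floor per library given above. T60 and T75 supplied 86 of these 90 reads and were the WT BPA libraries with Cdh16 above 20 CPM. In WT testes with stigmasterol the smallest p-values were those of Hoxa2 (log2 fold change -0.71 ± 0.51 SE, adjusted p = 0.767), Hoxb4 (-0.43 ± 0.31 SE, adjusted p = 0.767) and Hoxb1 (-0.57 ± 0.43 SE, adjusted p = 0.784), with no unadjusted p under 0.05 and no call by DESeq2 or limma-voom. Over all 20254 tested genes, 1672 had an unadjusted p under 0.05 there.

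In KO testes with BPA the smallest p-values were those of Hoxb9 (0.52 ± 0.21 SE, adjusted p = 0.896), Hoxa6 (2.06 ± 1.04 SE, adjusted p = 0.896) and Hoxc13 (0.75 ± 0.42 SE, adjusted p = 0.896), with 1 unadjusted p under 0.05. In KO testes with stigmasterol 14 had an unadjusted p under 0.05, led by Hoxb9 (0.83 ± 0.21 SE, adjusted p = 0.981), Hoxc8 (1.88 ± 0.48 SE, adjusted p = 1.00) and Hoxa7 (1.96 ± 0.52 SE, adjusted p = 1.00). Over all 20254 tested genes, 873 had an unadjusted p under 0.05 with BPA in KO testes and 779 with stigmasterol. DESeq2 and limma-voom called no Hox gene in these comparisons of KO testes, where with BPA DESeq2 called 0.0346% of all genes higher and 0.0247% lower. The authors' deposited table gave 1 Hox gene an adjusted p under 0.05 in its 4 treatment comparisons, Hoxa5 for stigmasterol against vehicle in KO testes, with a log2 fold change of 2.50 and an adjusted p of 0.03 in the authors' deposited table. Hoxa5 was 1 of 5 genes under that limit in this comparison of the authors' deposited table, which had 965 genes under it for BPA in WT testes, 18 for BPA in KO testes and 12 for stigmasterol in WT testes, no Hox gene among them. In the edgeR fit the same gene had 2.52 ± 0.74 (SE, adjusted p = 1.00). The interactions led with Hoxa11 (-4.01 ± 2.41 SE, adjusted p = 0.624), Hoxb9 (0.45 ± 0.27 SE, adjusted p = 0.629) and Hoxd12 (adjusted p = 0.634) for BPA, with no unadjusted p under 0.05. For stigmasterol they led with Hoxb9 (0.96 ± 0.27 SE, adjusted p = 0.282), Hoxa7 (2.26 ± 0.70 SE, adjusted p = 0.341) and Hoxa2 (2.12 ± 0.71 SE, adjusted p = 0.378), with 12 unadjusted p under 0.05. Of all 20254 tested genes, 1788 had an unadjusted p under 0.05 in the BPA interaction and 1855 in the stigmasterol interaction. DESeq2 called 1 Hox gene in the BPA interaction, Hoxd12, lower and with no read in 11 of 21 libraries, against 0.0197% of all genes called higher and 0.0197% lower, and limma-voom called none in either.

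Some noncoding genes inside the clusters were called on Cdh16 as well. Of 15 matched by symbol, 9 were tested, and 3 were called positive on Cdh16, against 1.93% of all genes: Hoxb5os (slope 0.68 ± 0.0941, adjusted p = 0.000244), Haglr (0.18 ± 0.0311, adjusted p = 0.00283) and Hoxa11os (1.16 ± 0.21, adjusted p = 0.00302). They share exon bases with Hoxb5, Hoxd3 and Hoxa11, which were called too. Without strand, reads over those bases cannot be told apart, so these calls may not be separate from those of the Hox genes. How far they depend on shared reads was not tested. Hoxa11os was highest in T117 at 7.60 CPM, and Haglr, antisense to part of Hoxd3, and Hoxb5os were highest in T93 at 8.82 and 1.35 CPM. In KO against WT over the 3 treatments 4 of the 9 were called higher, against 6.85% of all genes. These were Hoxaas2, Hoxaas3, Hoxb3os and Haglr, which also share exon bases with Hox genes. The miRNA genes Mir10a, Mir10b, Mir196a-2 and Mir615 never exceeded 0.241 CPM and were not tested. Reads at the Mir196a-1 locus, 1.98 to 6.18 CPM, had a slope of 0.00 ± 0.0248 on Cdh16 (adjusted p = 0.970). The counts are reads of long RNA at these loci and do not measure mature miRNAs.

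Genes that act with or on the Hox genes were counted in the same tests. None of the 11 TALE cofactor genes (Pbx, Meis and related homeobox genes) and none of the 26 Polycomb and Trithorax genes, which keep Hox clusters silent or active, was called on Cdh16. In KO against WT over the 3 treatments, 1 of 11 and 1 of 26 were called lower, shares near the 7.07% of all genes. Of the 6 tested of 11 other homeobox genes related to Hox, none was called on Cdh16, where 1.93% of all genes were called positive, and 1 was called lower in KO testes. Duct transcription and signalling factors followed Cdh16: 7 of 10 were called positive, with slopes of 0.52 ± 0.0418 for Emx2 (adjusted p = 4.09e-07), 0.49 ± 0.0391 for Gata3 (adjusted p = 4.09e-07) and 0.14 ± 0.0199 for Fgfr2. In KO against WT over the 3 treatments 6 of these 10 were called higher, where 6.85% of all genes were.

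Beside the counts of further lists stand the shares over all genes. On Cdh16 1.93% were called positive and 0.128% negative, and in KO testes over the 3 treatments 6.85% were called higher and 7.07% lower. Other duct epithelium markers were called positive on Cdh16 in 11 of 14 tested genes, and 13 of 15 including Cdh16 were higher in KO testes. Summed levels were 304.8 to 1026 CPM in KO and 237 to 427 CPM in WT libraries. Spint2 (153 to 271 CPM) and Epcam (40.15 to 181 CPM) had the highest medians of the list, 205 and 64.3 CPM. Neither was called on Cdh16 (adjusted p = 0.601 and 0.306), so the sums do not measure duct RNA. Spink8, an epididymal secreted inhibitor gene, reached 87.95 CPM in T1, 82.3 CPM in T93 and 73.5 CPM in T117 and was at 0 in WT vehicle T79. None of the 6 tested kidney genes was called on Cdh16, and 4 of the 6 slopes were positive. Levels in the list differed: Lrp2 lay between 4.366 and 18.09 CPM and Aqp2 between 3.313 and 10.99 CPM. Umod and the untested Slc34a1 were at most 0.770 and 0.174 CPM in any library. Umod was highest in T93, T1 and T10, the libraries with most Cdh16, with a slope of 0.427 ± 0.145 (SE, adjusted p = 0.1735). Mesenchyme genes (0 of 9 called on Cdh16, all 9 slopes positive), immune genes (0 of 5), testis somatic factors (0 of 10), meiotic genes (0 of 14) and liver genes (0 of 8) were not called. With 1.93% of all genes called positive, lists this short hold few or no calls, so these counts do not set them apart. Endothelial genes gave 1 call of 6 (Emcn), skeletal muscle 1 of 7 (Acta1), fat 0 of 6, and spermatogonial genes 2 of 8, both negative. In KO against WT over the 3 treatments the counts were 5 of 6 fat genes higher, 4 of 10 testis somatic factors lower, 3 of 6 kidney, 1 of 9 mesenchyme and 1 of 6 endothelial genes higher, and no call among immune, meiotic, spermatogonial, liver and skeletal muscle genes. The part of any of these lists in the Hox differences was not tested.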

How the data were processed

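RNA of 21 mouse testes, 1 library per animal, was prepared with an unstranded TruSeq kit, per the labels' protocols. Alignment used mm10, with TopHat2 2.0.10, Bowtie2 2.1.0, Bowtie and CASAVA 1.8.2 listed, per the submitters' processing notes, with no counter given in the sources used here. The deposited table holds raw read counts per gene, which the authors made from their alignments. The authors also deposited a normalized signal and that signal divided by gene length in kb, per the file headers. The authors' log2 ratios and the authors' p-values (rounded) are deposited for the 4 treatment comparisons, with no test named in the header. From the counts, edgeR 4.0.16 (R 4.3.3) quasi-likelihood tests were run on the 20254 of 32643 genes that passed filterByExpr (minimum count 10, minimum total 15), with TMM scaling, a mean for each group, and p-values adjusted by Benjamini-Hochberg separately for each of 10 contrasts and the slope on log2 CPM of Cdh16 (prior count 2). Adjusted p-values in the text without another tool's name are from edgeR. The steps were tested on simulated data. DESeq2 1.42.0, limma 3.58.1 (voom), other scaling, no filter and leaving out animals were alternatives. Every animal's value is given for members called in a contrast, the 12 with the smallest p on Cdh16 and the most abundant of each cluster. Genes in contrasts without calls are the 3 smallest p-values, and other lists are given by counts with at most 4 genes. The members and lists were chosen with earlier results of these data known. Some genes counted in the totals are not reported here by name or drawn. Floors cover counting error only.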

Additional observations from a re-analysis of the deposited data

Results flagged for a closer look

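Of 113 tests of a group of 4 WT animals, 7 had a single animal whose gap to the nearest other exceeded the critical share of 0.829 of the group's range, and chance gives about 1 in 20. In WT vehicle testes, T81 stood above the others for Cdh16 (17.57 CPM) and for Hoxb8 (5.19 CPM). In the same group T71 stood below the others for Hoxc10 (0.451 CPM). In WT stigmasterol testes T118 had 0.0182 CPM of Hoxa11 and 0.0182 CPM of Hoxd12, 1 read each, where the other 3 animals had none. T78 of that group stood below the others for Hoxc13 (0.203 CPM). In WT BPA testes T61 stood below the others for Hoxb1 (0.108 CPM).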

How the results depend on the processing

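No paired analysis was possible because the labels number animals individually and no number is shared between groups. For KO against WT over the 3 treatments the count of 8 called Hox genes became 15 with DESeq2, 0 with limma-voom, 0 without the libraries with at least 10 CPM of Cdh16 and 1 with Cdh16 as a term, and leaving out single animals gave 3 (T117) to 19 (T15), with 4 without T1, T110 or T93 and 5 without T61. With vehicle the count of 1 became 2 with DESeq2, 0 with limma-voom, 0 without those libraries and 0 when only the 2 groups were fitted, and leaving out single animals gave 0 to 1, with 0 without T66, T71, T81, T1, T90 or T110. With stigmasterol the count of 16 became 6 with limma-voom and 0 without those libraries, with Cdh16 as a term or with only the 2 groups, and leaving out single animals gave 0 (T93) to 20 (T15), with 8 without T119 and 9 without T98 or T118. DESeq2 called 1 in the BPA interaction. The 14 slopes on Cdh16 became 1 in WT libraries, 8 in KO libraries, 25 with no group terms, 0 within the libraries under 10 CPM with or without group terms, 0 within those of at least 10 CPM with group terms and 0 there without group terms and T93. Without the libraries with at least 10 CPM of Cdh16, values turned to -0.18 for Hoxd3 and -0.04 for Hoxa9 over the 3 treatments, -0.048 for Hoxd11 with BPA, -0.008 for Hoxc9, -0.15 for Hoxb7 and -0.23 for Hoxb6 with stigmasterol, and -0.11 for Hoxb9 in the BPA interaction. Leaving out single animals gave Hoxd11 with BPA -0.82 (without T117) to 1.20 (without T75). Slopes within the libraries under 10 CPM turned to -0.035 for Hoxd3, -0.10 for Hoxb3, -0.087 for Hoxa5, -0.066 for Hoxb4 and -0.009 for Hoxa10 with group terms, and to -0.045 for Hoxb7 and -0.054 for Hoxb4 without them. Slopes within the 9 others without group terms turned to -1.14 for Hoxa11 (-0.86 without T93, -0.97 without T117) and -0.47 for Hoxa10 (-0.42 and -0.30). With union exon lengths the shares of the summed Hox level per kb were 14.6% for Hoxb9, 5.38% for Hoxc6 and 0.690% for Hoxa9, against 10.9%, 10.1% and 3.06% with the table's lengths. The causes were not tested. Over the 11 counts of calls, 180 other settings kept the count within 1.5 times and 36 moved it further. Counts of 0 that stayed 0, as for both treatments against vehicle in either genotype, are among the 180. That number therefore does not measure how steady the counts above 0 were.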
